A study of Homo sapiens with 16 samples.

Results

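The BCL2 family genes of cell death were followed across CAL51 cells treated with CC-671, a small-molecule inhibitor of the kinases TTK and CLK2. The set was chosen by gene symbol and holds 10 members of the 55510 symbols in the count tables: the survival genes BCL2, BCL2L1 and MCL1, the effector genes BAX and BAK1, and the BH3-only genes BBC3, PMAIP1, BCL2L11, BID and BAD. CAL51 is a line of triple-negative breast cancer, grown here at passage 10 and described by the submitters as near-diploid with a tetraploid fraction. The 16 libraries fall into 6 groups: 3 µM CC-671 for 6 h, 10 µM CC-671 for 6 h, 3 µM for 24 h and 10 µM for 24 h, with 3 biological replicates each, and DMSO vehicle for 6 h and for 24 h. The vehicle groups had 2 replicates each. All cells came from 1 line in culture, so the replicates measure the spread within that line and not between tumours.

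Proteins of this family decide whether the outer membrane of mitochondria is opened during apoptosis. BAX and BAK1 form the pores that release cytochrome c, the survival proteins BCL2, BCL2L1 (BCL-XL) and MCL1 hold them in check, and the BH3-only proteins bind the survival proteins or trigger BAX and BAK1 directly. BBC3 encodes PUMA and PMAIP1 encodes NOXA, and PMAIP1 is known as a target of ATF4 in the stress response to amino acid shortage or misfolded protein. Many breast cancer cells rely on MCL1 and BCL-XL for survival.

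Each library held between 104609173 and 123789361 read pairs counted at genes, so each member was read at between 870 pairs, for PMAIP1 in vehicle, and 38854 pairs, for MCL1. Of the 55510 symbols, 22007 passed a filter on low counts, and all 10 members were among them. Levels are TMM-scaled CPM, the pairs of a gene relative to all pairs counted at genes. Every adjusted p below comes from edgeR's two-sided quasi-likelihood test with Benjamini-Hochberg adjustment over the 22007 genes, called a change under 0.05. These levels are relative to the RNA of each library, and in bulk RNA fewer cells carrying a transcript cannot be told apart from less RNA per cell. The hormone receptor genes ESR1 and PGR, whose absence is part of the definition of the triple-negative class, summed to at most 0.0611 CPM in any library. No other gene of that definition was among the markers. The 5 epithelial markers summed to 1860 to 1920 CPM in the 24 h treated libraries and 1590 to 1640 CPM in 24 h DMSO, and at 6 h to 1790 to 1920 CPM in treated libraries and 1800 to 1820 CPM in DMSO. The 4 mesenchymal markers summed to 1820 to 1990 CPM in the 24 h treated libraries and 2320 to 2360 CPM in 24 h DMSO, and at 6 h to 1590 to 1980 CPM in treated libraries and 1680 to 1910 CPM in DMSO. At 24 h the epithelial sum was thus higher and the mesenchymal sum lower in treated libraries, without overlap, while single markers of each list went both ways. At 10 µM and 24 h KRT8, KRT18 and KRT19 were higher, and EPCAM (log2 -0.14) and CDH1 (-0.77) were lower. VIM was higher there (0.68), while FN1 (-0.50), CDH2 (-0.29) and ZEB1 (-0.17) were lower. Without a scaling factor 1 epithelial and 2 mesenchymal markers were called lower. Summed fibroblast markers were 235 to 250 CPM in the 24 h treated libraries, against 278 to 284 CPM in 24 h DMSO. The 5 of 7 that passed the filter were lower at each dose, and without a scaling factor 3 were at each dose. At 6 h the sum was 275 to 299 CPM in treated libraries and 226 to 232 CPM in DMSO. DCN and FAP stayed under 0.1 CPM in all libraries. Summed leukocyte markers were 6.45 to 7.91 CPM in the 24 h treated libraries and 13.1 to 13.8 CPM in 24 h DMSO, and at 6 h 11.8 to 13 CPM in treated libraries and 10.8 CPM in DMSO, with 4 of 8 under 0.1 CPM in all libraries. PTPRC made up most of that sum and fell by 1.26 at 10 µM and 24 h and by 0.23 at 6 h on the log2 scale, while CD14 rose by 1.87 and 4.18 and CD79A by 1.55 and 2.56 at low levels. The share of read pairs outside annotated exons was 5.01 to 6.22% in the treated libraries and 3.78 to 4.24% in DMSO. The part of these differences in the results below was not tested.

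The genes that rose in all 4 comparisons with vehicle were BBC3, PMAIP1 and BAX, and the stretches upstream of their start sites are shown because these 3 moved together. The sequences are the part without annotated exons of the 250 bases before each start, from the RefSeq table for GRCh38.p14, while the counts were made on hg19 (GRCh37). They read 5′ to 3′ on the gene's strand, which is chr19:47232767-47232917 on the minus strand for BBC3, chr18:59899746-59899947 on the plus strand for PMAIP1 and chr19:48954625-48954814 on the plus strand for BAX. Capitals mark the letters CACGTG (E-box) and TGACG or its reverse complement (the core of the cyclic AMP response element, a sequence that ATF and CREB proteins are known to bind).
BBC3: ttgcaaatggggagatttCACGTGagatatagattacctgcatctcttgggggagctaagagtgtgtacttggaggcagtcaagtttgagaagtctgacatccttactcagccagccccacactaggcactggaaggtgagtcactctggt
PMAIP1: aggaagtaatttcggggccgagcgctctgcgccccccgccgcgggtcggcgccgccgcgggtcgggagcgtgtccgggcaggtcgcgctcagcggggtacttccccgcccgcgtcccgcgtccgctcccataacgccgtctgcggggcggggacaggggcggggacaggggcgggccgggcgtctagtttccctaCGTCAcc
BAX: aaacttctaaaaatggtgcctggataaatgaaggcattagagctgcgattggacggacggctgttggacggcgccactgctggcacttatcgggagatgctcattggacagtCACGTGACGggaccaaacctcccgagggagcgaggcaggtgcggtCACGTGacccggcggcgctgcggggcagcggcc

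Of the 10 members, 9 had an entry in the promoter table, and MCL1 had none. Both strands of the 250 bases before the start were searched for 4 motifs, which were chosen after the sequences and the changes had been seen. CACGTG stood in the windows of BBC3, BAX and BID, and in 6.34% of all 35116 windows. The BAX window held it at 4 places, of which 2 lie in the stretch shown, 138 and 93 bases before the start. TGACG stood in the windows of PMAIP1, BAX, BCL2L1, BCL2 and BAD, and in 21.2% of all windows, and in BAX it overlapped 1 of the E-boxes. GTAAACA, a core bound by FOXO proteins, was found in BCL2L11 alone and in 2.98% of windows, and TGATGNAA, the composite letters for CHOP and ATF4, in no member and 3.14% of windows. A match describes letters only, and no match says only that the letters are not in this window.

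At 6 h with 3 µM, 6 of the 10 members changed, 5 of them higher (BBC3, PMAIP1, BAX, BAD and BID) and 1 lower (BCL2), where 63.2% of all tested genes were called, 31.6% higher and 31.6% lower. At 10 µM and 6 h, 9 changed, with 7 higher and 2 lower (BCL2 and BAK1), against 67.6% of all genes, 34% higher and 33.6% lower. By 24 h at 3 µM, 9 changed, with 4 higher (BBC3, PMAIP1, BAX and BAK1) and 5 lower (BCL2, BCL2L1, MCL1, BID and BCL2L11), where 60.6% of all genes were called, 29.7% higher and 30.9% lower. With 10 µM for 24 h, the same 4 genes were higher and 5 were lower, BAD taking the place of BCL2L11, against 63.6% of all genes, 31.3% higher and 32.3% lower. Most of the transcriptome was called in every comparison with vehicle. The share of members called was near that background at 3 µM and 6 h and above it in the other comparisons. Whether 10 members exceed the background was not tested, and the account below turns on sizes. The median log2 fold change over the members was 0.092 at 3 µM and 0.19 at 10 µM at 6 h, and -0.049 and -0.085 at 24 h, beside medians over all tested genes of 0.017, 0.013, 0.00081 and 0.0055.

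**Figure D1:**
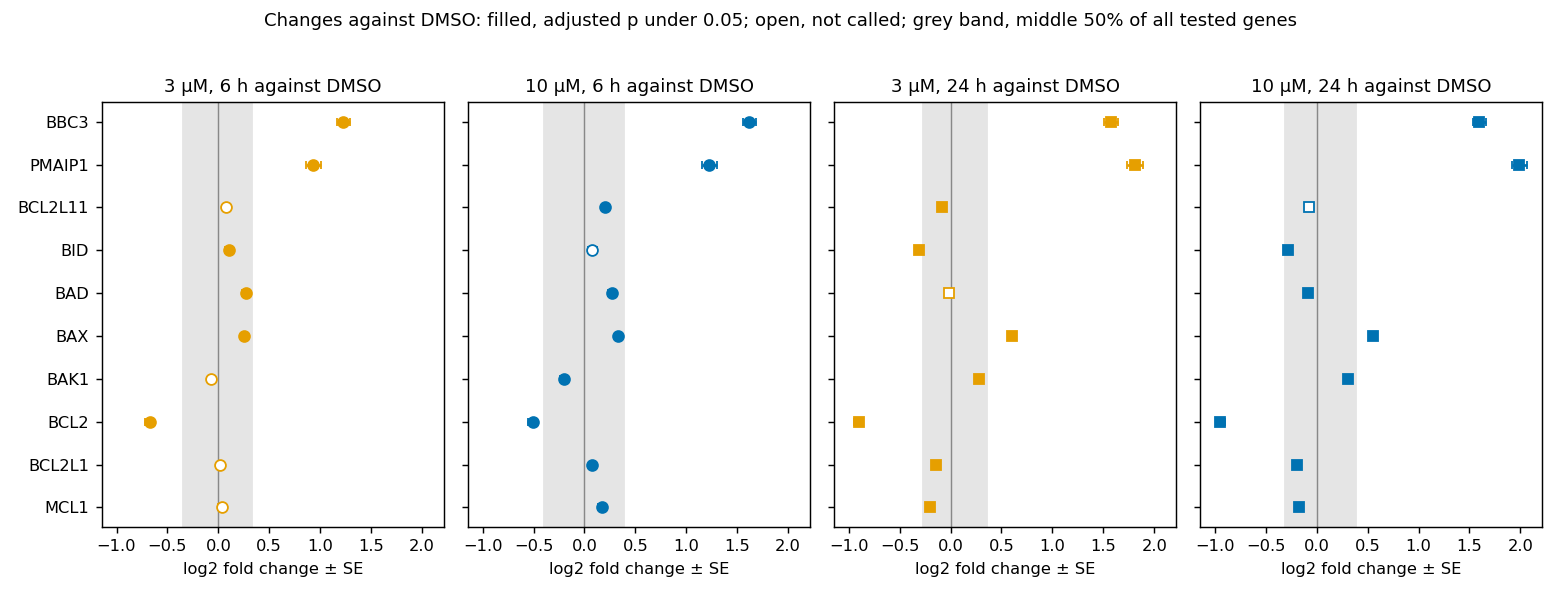
Log2 fold change against DMSO with its standard error for each member (rows) in the 4 dose and time groups (panels). BBC3 and PMAIP1 lie far to the right in each panel, at 1.23 and 0.93 in the first and 1.60 and 1.99 in the last, and BCL2 lies left of 0 in each. MCL1, BCL2L1, BID and BCL2L11 lie between -0.31 and 0.21; filled symbols are called changes and the grey band holds the middle 50% of all tested genes.

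Among the survival genes of the set, BCL2 was the one that fell in all 4 comparisons. BCL2L1 and MCL1 fell at 24 h by at most 0.20 ± 0.036 on the log2 scale and at 6 h were called only at 10 µM, as higher. BCL2L2, a survival gene outside the set, was also lower in all 4, as given below. BCL2, the founding member of the family and a blocker of BAX and BAK1, stood at 23.9, 21.5 and 22.3 CPM at 3 µM and 25.5, 25 and 25.5 CPM at 10 µM after 6 h, against 35.1 and 37 CPM in DMSO. No treated library reached the lower of the 2 vehicle libraries. The log2 fold changes were -0.67 ± 0.044 at 3 µM (edgeR adjusted p = 1.38e-13) and -0.51 ± 0.044 at 10 µM (adjusted p = 4.13e-11). After 24 h the levels were 19.2, 20.2 and 18.8 CPM at 3 µM and 19.3, 18.1 and 18.9 CPM at 10 µM, against 36.2 and 36.2 CPM in DMSO. The late groups again did not overlap, and the treated to vehicle ratio was 0.536 at 3 µM (log2 -0.90 ± 0.044, adjusted p = 7.45e-16) and 0.519 at 10 µM (log2 -0.95 ± 0.044, adjusted p = 1.64e-16).

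BCL2L1, which encodes the survival protein BCL-XL and by splicing also a shorter death-promoting form, stood at 200.5, 196 and 200.4 CPM at 3 µM and 205, 209.7 and 207 CPM at 10 µM after 6 h, against 194 and 199 CPM in DMSO. The 3 µM libraries overlapped the vehicle libraries, with a log2 fold change of 0.018 ± 0.028 (edgeR adjusted p = 0.604), and the 10 µM libraries lay just above them, at 0.077 ± 0.028 (adjusted p = 0.0166). The 10 µM value was no longer called without DMSO 6 h replicate 1 (0.050), with no filter beyond 1 count (0.058) or with only the compared groups (0.077). After 24 h BCL2L1 was lower at both doses, with 161, 162 and 162 CPM at 3 µM and 156, 159 and 157 CPM at 10 µM, against 179 and 179 CPM in DMSO. The late log2 fold changes were -0.15 ± 0.028 (adjusted p = 5.14e-05) and -0.19 ± 0.028 (adjusted p = 1.33e-06). Without a scaling factor the late 3 µM value was -0.047 and not called. Counts per gene add up all transcripts, so the long and short forms of BCL2L1 and of MCL1 were not separated. In the GENCODE 29 annotation 43% of the exon bases of BCL2L1 are shared with the opposite-strand gene ABALON, so its level carries that uncertainty.

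MCL1, a short-lived survival protein that holds BAK1 and binds PMAIP1, stood at 281, 275 and 283 CPM at 3 µM and 331, 300.1 and 294 CPM at 10 µM after 6 h, against 272 and 276 CPM in DMSO. The 3 µM libraries overlapped vehicle (0.031 ± 0.036, edgeR adjusted p = 0.474), and MCL1 rose at 10 µM (0.17 ± 0.036, adjusted p = 0.000153), with replicate 1 the highest of the 3. At 24 h it was lower, with 247, 255 and 246 CPM at 3 µM and 254, 252 and 257 CPM at 10 µM, against 288 and 285 CPM in DMSO. All 6 treated libraries lay below both vehicle libraries, and the log2 fold changes were -0.20 ± 0.036 (adjusted p = 2.51e-05) and -0.17 ± 0.036 (adjusted p = 0.000159). Without a scaling factor the 10 µM value was -0.061 and not called.

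Both effector genes were higher after 24 h, BAX more than BAK1, and at 6 h BAX was called higher and BAK1 was not. BAX, the effector that moves from the cytosol to mitochondria, stood at 125, 128 and 122 CPM at 3 µM and 127, 136 and 131 CPM at 10 µM after 6 h, against 104 and 104 CPM in DMSO. Every treated library exceeded both vehicle libraries, with log2 fold changes of 0.26 ± 0.033 (edgeR adjusted p = 9e-08) and 0.33 ± 0.033 (adjusted p = 5.92e-10). At 24 h BAX reached 157, 151 and 153 CPM at 3 µM and 147, 151 and 147 CPM at 10 µM, against 102 and 99.8 CPM in DMSO. The gap to vehicle was again without overlap, with folds of 1.52 at 3 µM (log2 0.61 ± 0.033, adjusted p = 5.71e-15) and 1.47 at 10 µM (log2 0.56 ± 0.033, adjusted p = 2.37e-14).

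BAK1, the effector that sits on mitochondria in healthy cells, stood at 39.3, 40.9 and 41.3 CPM at 3 µM and 36.3, 38.3 and 36.3 CPM at 10 µM after 6 h, against 42 and 43 CPM in DMSO. It fell at 10 µM, by 0.20 ± 0.036 on the log2 scale (edgeR adjusted p = 1.69e-05), and its 3 µM value of -0.068 ± 0.036 did not pass (adjusted p = 0.0986). At 24 h BAK1 was higher, with 47.8, 46.8 and 47.6 CPM at 3 µM and 47.9, 49.1 and 48.2 CPM at 10 µM, against 39.9 and 38.3 CPM in DMSO. The late log2 fold changes were 0.28 ± 0.036 (adjusted p = 1.84e-07) and 0.31 ± 0.036 (adjusted p = 2.64e-08). Reads can be shared between BAK1 and its pseudogene copies BAK1P1 and BAK1P2. BAK1P1, counted at 419 to 642 pairs a library, had log2 fold changes of -0.17 at 10 µM for 6 h (adjusted p = 0.0442) and 0.26 at 10 µM for 24 h (adjusted p = 0.00262).

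**Figure D2:**
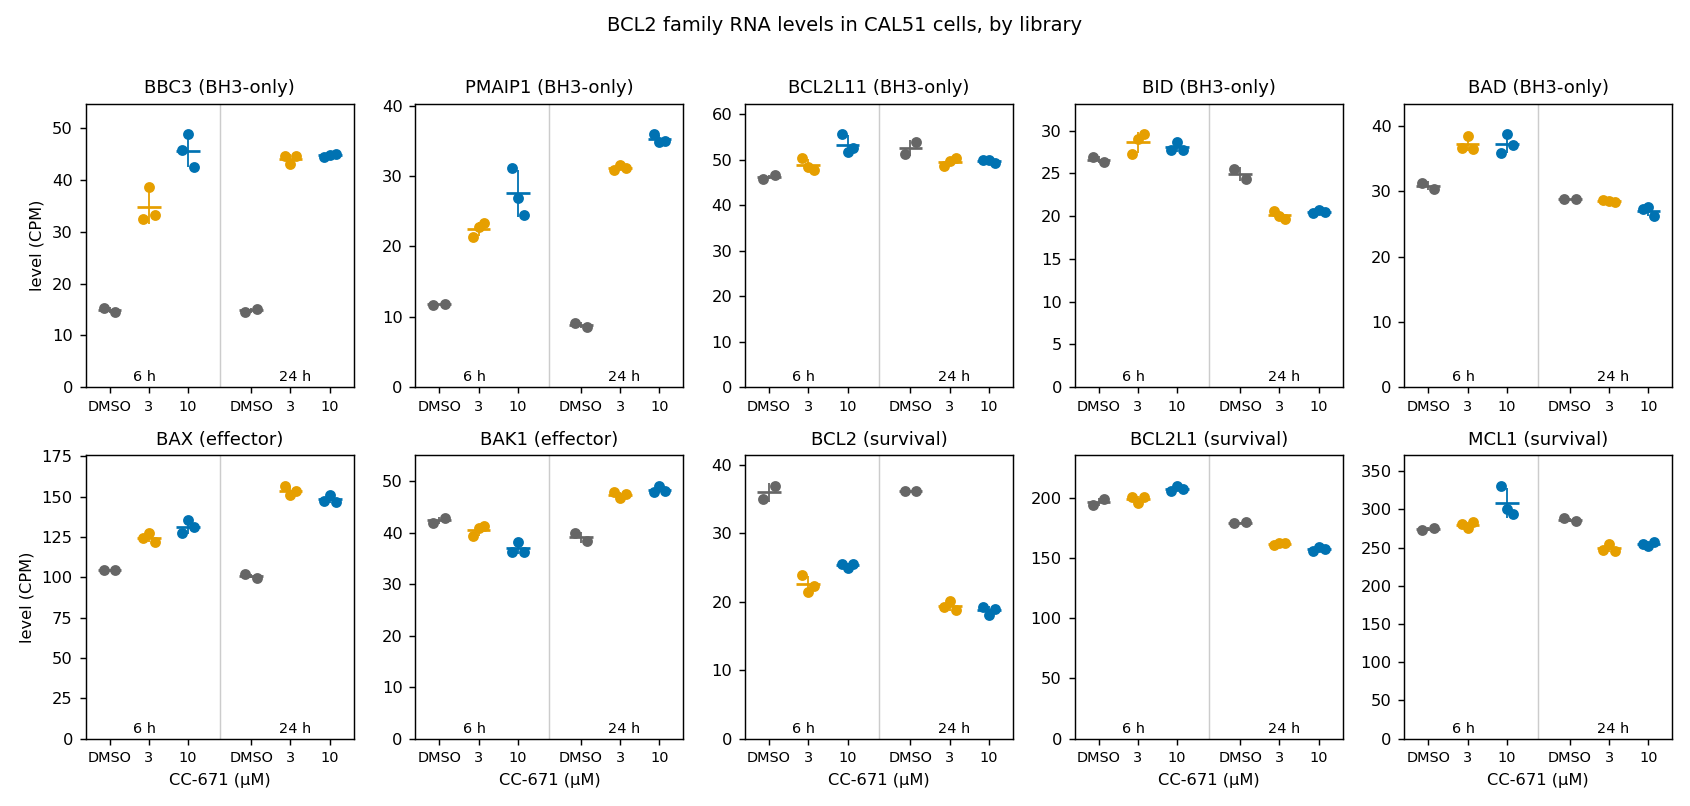
CPM of each member (10 panels) in every library, with groups ordered by dose within 6 h and within 24 h; points are libraries, and bars are the group mean and SD. In the BBC3 panel the treated libraries of 24 h stand between 43.1 and 45 CPM and the vehicle libraries of both times between 14.5 and 15.2 CPM, and in the BCL2 panel every treated library lies below every vehicle library.

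The BH3-only genes split into BBC3 and PMAIP1, which rose 1.91- to 3.97-fold, and BCL2L11, BID and BAD, whose log2 fold changes lay between -0.31 and 0.27. BBC3 encodes PUMA, which can neutralise all the survival proteins of the set. It stood at 32.6, 38.7 and 33.3 CPM at 3 µM and 45.8, 48.8 and 42.5 CPM at 10 µM after 6 h, against 15.2 and 14.5 CPM in DMSO. The lowest treated library held more than the highest vehicle library, and the folds were 2.34 (log2 1.23 ± 0.066, edgeR adjusted p = 3.57e-12) and 3.07 (log2 1.62 ± 0.066, adjusted p = 3.35e-14). After 24 h BBC3 stood at 44.6, 43.1 and 44.6 CPM at 3 µM and 44.5, 44.9 and 45 CPM at 10 µM, against 14.5 and 15.1 CPM in DMSO. The libraries of both doses then overlapped, with folds of 2.98 (log2 1.58 ± 0.067, adjusted p = 1.7e-13) and 3.03 (log2 1.60 ± 0.066, adjusted p = 9.33e-14).

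PMAIP1 encodes NOXA, a BH3-only protein that acts mainly on MCL1. After 6 h it stood at 21.3, 22.7 and 23.3 CPM at 3 µM and 31.2, 26.9 and 24.5 CPM at 10 µM, against 11.7 and 11.8 CPM in DMSO. The folds were 1.91 (log2 0.93 ± 0.073, edgeR adjusted p = 1.47e-09) and 2.34 (log2 1.23 ± 0.072, adjusted p = 1.76e-11), with no overlap. After 24 h the levels were 30.9, 31.5 and 31.1 CPM at 3 µM and 35.9, 34.8 and 34.9 CPM at 10 µM, against 9.17 and 8.57 CPM in DMSO. PMAIP1 then had the highest fold of the family at each dose, 3.51 (log2 1.81 ± 0.076, adjusted p = 2.44e-13) and 3.97 (log2 1.99 ± 0.076, adjusted p = 4.15e-14). Among all 22007 tested genes the 10 µM value at 24 h stood at percentile 96.6 for PMAIP1 and 94.9 for BBC3, and BCL2 stood at percentile 4.44.

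BCL2L11, which encodes BIM, an activator of BAX and BAK1, stood at 50.4, 48.4 and 47.8 CPM at 3 µM and 55.6, 51.6 and 52.7 CPM at 10 µM after 6 h, against 45.9 and 46.6 CPM in DMSO. It rose at 10 µM (0.21 ± 0.037, edgeR adjusted p = 1.72e-05). The 3 µM value was 0.079 ± 0.037 (adjusted p = 0.0636), which passed without 10 µM 6 h replicate 1 or 2 or 3 µM 6 h replicate 3 (0.079 to 0.095), and under DESeq2, RLE scaling, no scaling or the stricter filter (0.093 to 0.11). At 24 h the levels were 48.6, 49.7 and 50.4 CPM at 3 µM and 49.9, 50.04 and 49.2 CPM at 10 µM, against 51.3 and 53.9 CPM in DMSO. The late values were -0.086 ± 0.037 (adjusted p = 0.0455) and -0.080 ± 0.037 (adjusted p = 0.0587), both near the threshold. The 3 µM call was lost without any of the 10 µM 24 h libraries, 3 µM 24 h replicate 1 or 2, or DMSO 24 h replicate 2 (-0.087 to -0.050), with no filter beyond 1 count (-0.088) and under the stricter filter (-0.048). The 10 µM value passed without DMSO 24 h replicate 1 (-0.12), 10 µM 6 h replicate 1 or 2 or 3 µM 6 h replicate 1 (-0.080 each), and under DESeq2, RLE scaling or with only the compared groups (-0.089 to -0.070). Without a scaling factor both late values were above 0 and not called, at 0.015 and 0.031. BCL2L11 shares 10.9% of its exon bases with the opposite-strand RNA gene MIR4435-2HG, counted under an older symbol, whose log2 fold changes lay between -0.14 and -0.13 in the 4 comparisons.

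BID, which is cut by caspases into an activator of BAX, stood at 27.3, 29 and 29.6 CPM at 3 µM and 27.8, 28.7 and 27.8 CPM at 10 µM after 6 h, against 26.9 and 26.3 CPM in DMSO. The early values were 0.11 ± 0.041 at 3 µM (edgeR adjusted p = 0.0251) and 0.079 ± 0.041 at 10 µM (adjusted p = 0.0885). The 3 µM call was lost without 3 µM 6 h replicate 2 or 3 or either DMSO 6 h library (0.082 to 0.11), with no filter beyond 1 count (0.092) and with only the compared groups (0.098). The 10 µM value passed under a stricter filter (0.12) and without a scaling factor (0.095). After 24 h BID was lower at both doses, with 20.6, 20.02 and 19.7 CPM at 3 µM and 20.3, 20.7 and 20.5 CPM at 10 µM, against 25.6 and 24.3 CPM in DMSO. No treated library reached vehicle, and the log2 fold changes were -0.31 ± 0.041 (adjusted p = 2.75e-07) and -0.28 ± 0.041 (adjusted p = 1.03e-06).

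BAD, a sensitizer held inactive by growth factor signalling, stood at 36.7, 38.5 and 36.6 CPM at 3 µM and 35.9, 38.8 and 37.1 CPM at 10 µM after 6 h, against 31.4 and 30.4 CPM in DMSO. It rose at both doses, by 0.27 ± 0.039 (edgeR adjusted p = 7.49e-07) and 0.27 ± 0.039 (adjusted p = 5.94e-07). At 24 h it stood at 28.6, 28.5 and 28.4 CPM at 3 µM and 27.3, 27.6 and 26.2 CPM at 10 µM, against 28.8 and 28.8 CPM in DMSO. The log2 fold changes were -0.012 ± 0.039 (adjusted p = 0.802) and -0.090 ± 0.039 (adjusted p = 0.0484). The 10 µM call was lost without 10 µM 24 h replicate 1 or 3, any 3 µM 24 h library, either DMSO 24 h library or DMSO 6 h replicate 2 (-0.098 to -0.068). It was also lost under limma-voom (-0.090), with no filter beyond 1 count (-0.092) and under the stricter filter of 1 CPM in 5 libraries (-0.052), and without a scaling factor the value was 0.021. BAD shares 23.7% of its exon bases with GPR137 on the opposite strand, whose log2 fold changes were -0.57 at 3 µM and -0.54 at 10 µM for 6 h and -0.11 and -0.13 for 24 h. Because the strand setting of the counting is not given in the sources used here, the part of that gene in the BAD level was not tested.

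Between the 2 doses, family genes differed at 6 h, and none was called at 24 h. At 6 h, 6 members differed between 10 µM and 3 µM, with 5 higher and 1 lower at 10 µM, where 24.9% of all tested genes were called, 12% higher and 12.9% lower. BBC3 differed most, at 0.39 ± 0.054 (edgeR adjusted p = 3.45e-05), followed by PMAIP1 at 0.29 ± 0.060 (adjusted p = 0.00144). BCL2 was higher at 10 µM by 0.17 ± 0.041 (adjusted p = 0.00289), so its early fall was smaller at the higher dose. MCL1 and BCL2L11 were higher by 0.14 ± 0.032 (adjusted p = 0.00203) and 0.13 ± 0.033 (adjusted p = 0.00528), and the BCL2L11 call was lost with only the compared groups (adjusted p = 0.0599). For PMAIP1, MCL1 and BCL2L11, replicate 1 was the highest of the 10 µM libraries at 6 h. Leaving out a library gave 0.19 to 0.37 for PMAIP1, 0.086 to 0.17 for MCL1 and 0.095 to 0.15 for BCL2L11, and all stayed called. BAK1 was lower at 10 µM, by 0.13 ± 0.032 on the log2 scale (adjusted p = 0.00336). BAX, at 0.075 ± 0.029 (adjusted p = 0.0573), passed without 10 µM 6 h replicate 1 (0.097) or 3 µM 6 h replicate 2 (0.092), and under the stricter filter (0.090), as did BCL2L1 (0.075). At 24 h, 0 of 10 members were called by edgeR, 0 higher and 0 lower, against 6.35% of all genes, 2.49% higher and 3.85% lower. Of these, PMAIP1 and BAD, 2 members, had an unadjusted p under 0.05, and DESeq2 called 1 and limma-voom 0. PMAIP1 was that gene, with 35.9, 34.8 and 34.9 CPM at 10 µM against 30.9, 31.5 and 31.1 CPM at 3 µM. Its log2 difference was 0.18 ± 0.058 (edgeR adjusted p = 0.0862, 95% interval 0.062 to 0.29). It passed without 10 µM 6 h replicate 1 (adjusted p = 0.00376) or replicate 3 (adjusted p = 0.0103). The other 9 differences at 24 h lay between -0.078 for BAD and 0.029 for BAK1, with 95% intervals of -0.15 to -0.0086 and -0.033 to 0.091.

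Within the vehicle groups, PMAIP1 changed most between the times. At 24 h against 6 h in DMSO, 4 members differed, 1 higher and 3 lower, beside 20.5% of all tested genes, 11% higher and 9.55% lower. PMAIP1 was lower at 24 h by 0.41 ± 0.085 on the log2 scale (edgeR adjusted p = 0.00209), so the vehicle level in its 24 h comparisons was the lower of the 2. BCL2L1 was lower by 0.13 ± 0.031 (adjusted p = 0.00238), BAK1 by 0.12 ± 0.039 (adjusted p = 0.0334), and BCL2L11 was higher by 0.19 ± 0.040 (adjusted p = 0.00131). The BAK1 call was lost without either DMSO library of either time (-0.15 to -0.089).

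The effect of the drug differed between 24 h and 6 h for nearly the whole family, with the effectors and the survival genes on opposite sides. At 3 µM, the difference of the 2 effects was called for 10 of 10 members, 4 higher and 6 lower, where 49.3% of all tested genes were called, 25.6% higher and 23.7% lower. At 10 µM it was called for 9, with 3 higher and 6 lower, against 54% of all genes, 27.6% higher and 26.4% lower. BAX, BAK1 and PMAIP1 were the 3 genes whose effect was higher at 24 h at both doses, and all 3 survival genes, BCL2L11, BID and BAD were the 6 lower ones. BBC3 had the higher late effect at 3 µM, while at 10 µM its difference was -0.021 ± 0.092 (edgeR adjusted p = 0.865). Without a scaling factor the 3 µM differences of BCL2 (-0.15) and BCL2L11 (-0.088) were not called. The BCL2L11 difference at 3 µM was also no longer called without DMSO 24 h replicate 2 (-0.13) or DMSO 6 h replicate 1 (-0.14).

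**Figure D3:**
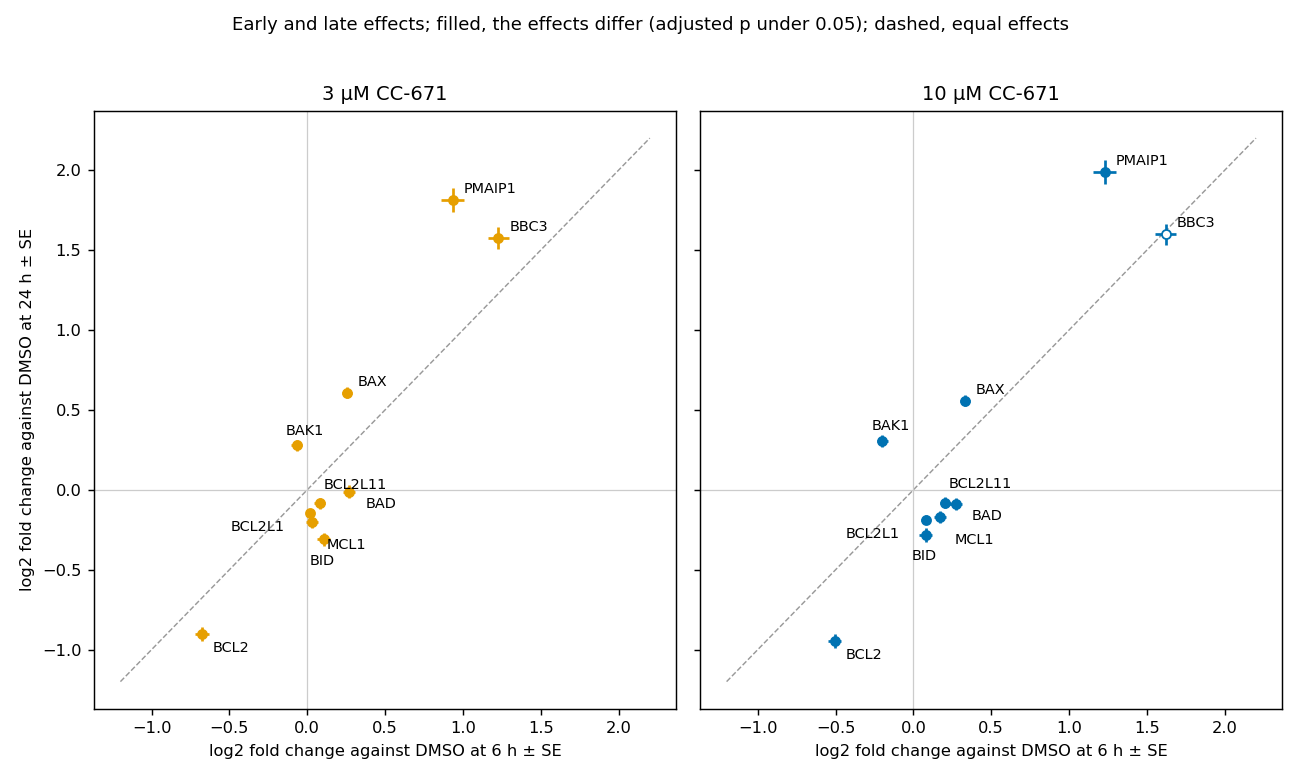
Log2 fold change against DMSO at 24 h (vertical) and at 6 h (horizontal), each with its standard error, for the 10 members at 3 µM (left) and 10 µM (right). PMAIP1, BAX and BAK1 lie above the dashed line of equal effects in both panels, BCL2, BCL2L1, MCL1, BCL2L11, BID and BAD lie below it, and BBC3 lies above it at 3 µM and on it at 10 µM. Filled points mark effects that differ.

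Compared per length of exon, the leading family transcripts were MCL1, BCL2L1 and BAX, and which of them led depended on the length taken for a gene. In CPM per kilobase of all annotated exons of a gene, MCL1 averaged 58.2 ± 0.56 in 10 µM cells at 24 h and 65.5 ± 0.56 in 24 h DMSO cells (SD, n = 3 and 2). BCL2L1 averaged 47.4 ± 0.46 in 10 µM cells and 54.1 ± 0.063 in DMSO cells. BAX averaged 57.4 ± 0.91 per kilobase in 10 µM cells, where its libraries overlapped those of MCL1, and 39 ± 0.58 in DMSO cells, where it ranked below both. PMAIP1 at 15.8 ± 0.27 and BBC3 at 14.1 ± 0.075 held ranks 6 and 7 in 10 µM cells, and at 3.97 ± 0.19 and 4.66 ± 0.14 held ranks 9 and 8 in DMSO cells. In 10 µM cells the PMAIP1 libraries overlapped those of BAD, which held rank 5. BCL2 was lowest in all 6 groups, at 1.60 ± 0.053 in 10 µM cells and 3.08 ± 0.0022 in DMSO cells. With the longest transcript as the length instead, an alternative chosen after the data were seen, BAX led in all 6 groups, vehicle included, at 109 in 10 µM cells and 74.3 in DMSO cells at 24 h. BCL2L1 ranked above MCL1 in the 6 h groups, and BBC3 ranked above PMAIP1 in all 6 groups. PMAIP1 at 4.55 then ranked below BCL2 at 4.85 in 24 h DMSO cells, and BCL2 was lowest in the other 5 groups. Of the summed level per kilobase of the 3 survival genes, BCL2 made up 1.49% ± 0.050 at 10 µM and 1.53% ± 0.040 at 3 µM after 24 h (SD, n = 3 each), against 2.51% ± 0.0084 in DMSO (SD, n = 2). MCL1 held 54.3% ± 0.37 at 10 µM and 53.1% ± 0.44 at 3 µM, against 53.4% ± 0.24 in DMSO.

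The wider BCL2-related list of 12 further genes gave 11 tested, and BCL2A1 was not tested. With 10 µM, 2 were called higher and 5 lower after 6 h, 4 higher and 4 lower after 24 h, where 67.6% and 63.6% of all tested genes were called. The list medians were -0.19 and 0.039. Without a scaling factor the 24 h count was 5 higher and 3 lower, with a median of 0.149. HRK, a BH3-only gene, was the highest of them at 24 h, at 1.81 ± 0.20 (edgeR adjusted p = 2.08e-08), though its level was low, 1.56 ± 0.054 CPM at 10 µM against 0.444 ± 0.012 CPM in DMSO (SD, n = 3 and 2). BIK, another BH3-only gene, rose by 0.73 ± 0.096 (adjusted p = 1.64e-07). BNIP3L, a mitophagy receptor, rose by 0.32 ± 0.035 (adjusted p = 5.77e-09), and BOK, an effector relative, fell by 0.70 ± 0.050 (adjusted p = 1.35e-12). At 6 h the largest change was in BCL2L2, the survival gene for BCL-W, which fell by 1.06 ± 0.046 at 10 µM (adjusted p = 1.09e-17) and by 1.19 ± 0.046 at 3 µM. Its late values were -0.39 at 3 µM (adjusted p = 2.62e-08) and -0.28 ± 0.045 at 10 µM (adjusted p = 3.58e-06). HRK rose by 0.99 ± 0.21 at 10 µM and 6 h (adjusted p = 0.000179). BOK fell by 0.68 ± 0.049 (adjusted p = 6.85e-13) and BCL2L13 fell by 0.29 ± 0.034 (adjusted p = 1.6e-08).

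Of 6 transcription factors known to drive family genes, 5 were higher and 1 lower after 6 h with 10 µM, and 4 higher and 2 lower after 24 h (0 lower without a scaling factor), beside 67.6% and 63.6% of all tested genes called. The list medians were 0.30 and 0.19. DDIT3 (CHOP), a factor of the integrated stress response, rose by 1.18 ± 0.22 at 6 h (edgeR adjusted p = 0.000715) and 2.47 ± 0.23 at 24 h (adjusted p = 2.96e-06). Its level at 24 h was 40.2 ± 0.38 CPM at 10 µM and 7.26 ± 0.34 CPM in DMSO (SD, n = 3 and 2). At 6 h its libraries spread more at 10 µM, from 14.9 to 29.9 CPM, against 9.35 to 9.84 CPM in DMSO. ATF4, its upstream factor, rose by 0.86 ± 0.036 (adjusted p = 4.18e-18) and 0.92 ± 0.036 (adjusted p = 2.65e-18). TP73 rose by 0.47 ± 0.047 (adjusted p = 9.59e-10) and 0.23 ± 0.048 (adjusted p = 0.000127). E2F1 fell by 0.43 ± 0.037 at 6 h (adjusted p = 3.09e-11) and by 0.14 ± 0.037 at 24 h (adjusted p = 0.00169). FOXO3 rose by 0.11 ± 0.047 at 6 h (adjusted p = 0.0387) and fell by 0.20 ± 0.047 at 24 h (adjusted p = 0.000506).

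Of 5 ubiquitin regulators of MCL1 protein, 2 were higher and 3 lower at 6 h and 1 higher and 4 lower at 24 h at 10 µM, where 67.6% and 63.6% of all tested genes were called. The list medians were -0.51 and -0.18. FBXW7, a ligase subunit that marks MCL1 for destruction, rose by 0.68 ± 0.043 at 6 h (edgeR adjusted p = 4.98e-14) and 1.19 ± 0.043 at 24 h (adjusted p = 8.06e-19). BTRC, another ligase subunit, fell by 1.44 ± 0.045 at 6 h (adjusted p = 1.59e-20) and 0.18 ± 0.043 at 24 h (adjusted p = 0.000774). The ligase HUWE1 fell by 0.51 ± 0.079 (adjusted p = 8.95e-05) and 0.61 ± 0.078 (adjusted p = 2.28e-05). USP9X, which removes ubiquitin from MCL1, fell by 1.06 ± 0.068 (adjusted p = 6.88e-09) and 0.29 ± 0.068 (adjusted p = 0.00214). MARCH5, a mitochondrial ligase, was at 0.10 ± 0.030 at 6 h (adjusted p = 0.00323) and -0.094 ± 0.030 at 24 h (adjusted p = 0.00736). Without a scaling factor 3 of the 24 h falls were not called, with BTRC at -0.068, USP9X at -0.18 and MARCH5 at 0.016. MCL1 protein was not measured.

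Among 9 genes for proteins that steer BCL2L1 splicing, 5 were higher and 4 lower after 6 h with 10 µM, and 1 higher and 7 lower after 24 h. Of all tested genes 67.6% and 63.6% were called, with 33.6% and 32.3% lower. The list medians were 0.12 and -0.31. Without a scaling factor the 24 h count was 2 higher and 6 lower, with a median of -0.202. SRSF10 fell by 0.59 ± 0.054 at 6 h (edgeR adjusted p = 1.33e-10) and 0.78 ± 0.055 at 24 h (adjusted p = 1.38e-12). KHDRBS1 (SAM68) fell by 0.65 ± 0.030 (adjusted p = 4.16e-17) and 0.37 ± 0.030 (adjusted p = 1.76e-11). SRSF1, an SR protein of the kind that CLK kinases phosphorylate, fell by 0.39 ± 0.030 at 24 h (adjusted p = 5.08e-12). SRSF9 fell by 0.36 ± 0.030 (adjusted p = 3e-11). HNRNPA1 and RBM25 rose at 6 h, by 0.48 ± 0.028 (adjusted p = 1.21e-14) and 0.48 ± 0.035 (adjusted p = 1.27e-12). At 24 h they fell, by 0.31 ± 0.028 (adjusted p = 1.37e-10) and 0.15 ± 0.035 (adjusted p = 0.000471), and the RBM25 fall was not called without a scaling factor (-0.039).

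Downstream of the pore, 10 mitochondrial death factors gave 4 higher and 5 lower at 10 µM and 6 h and 3 higher and 5 lower at 24 h, beside 67.6% and 63.6% of all tested genes called. The list medians were -0.046 and -0.12. Without a scaling factor the 24 h count was 4 higher and 4 lower, with a median of -0.0073. CYCS, which encodes cytochrome c, fell by 0.41 ± 0.037 at 24 h (edgeR adjusted p = 2.16e-10), and AIFM1 by 0.62 ± 0.032 (adjusted p = 1.82e-15). VDAC3, a channel of the outer membrane, fell by 0.52 ± 0.035 (adjusted p = 4.38e-13) and ENDOG, a nuclease, by 0.49 ± 0.051 (adjusted p = 2.23e-09). At 6 h AIFM1 fell by 0.62 ± 0.032 (adjusted p = 7.76e-16) and VDAC3 by 0.37 ± 0.035 (adjusted p = 1.95e-10). VDAC2, which recruits BAK1 to mitochondria, rose by 0.33 ± 0.038 (adjusted p = 8.97e-09), and HTRA2, a protease released with cytochrome c, by 0.31 ± 0.042 (adjusted p = 2.15e-07).

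**Figure D4:**
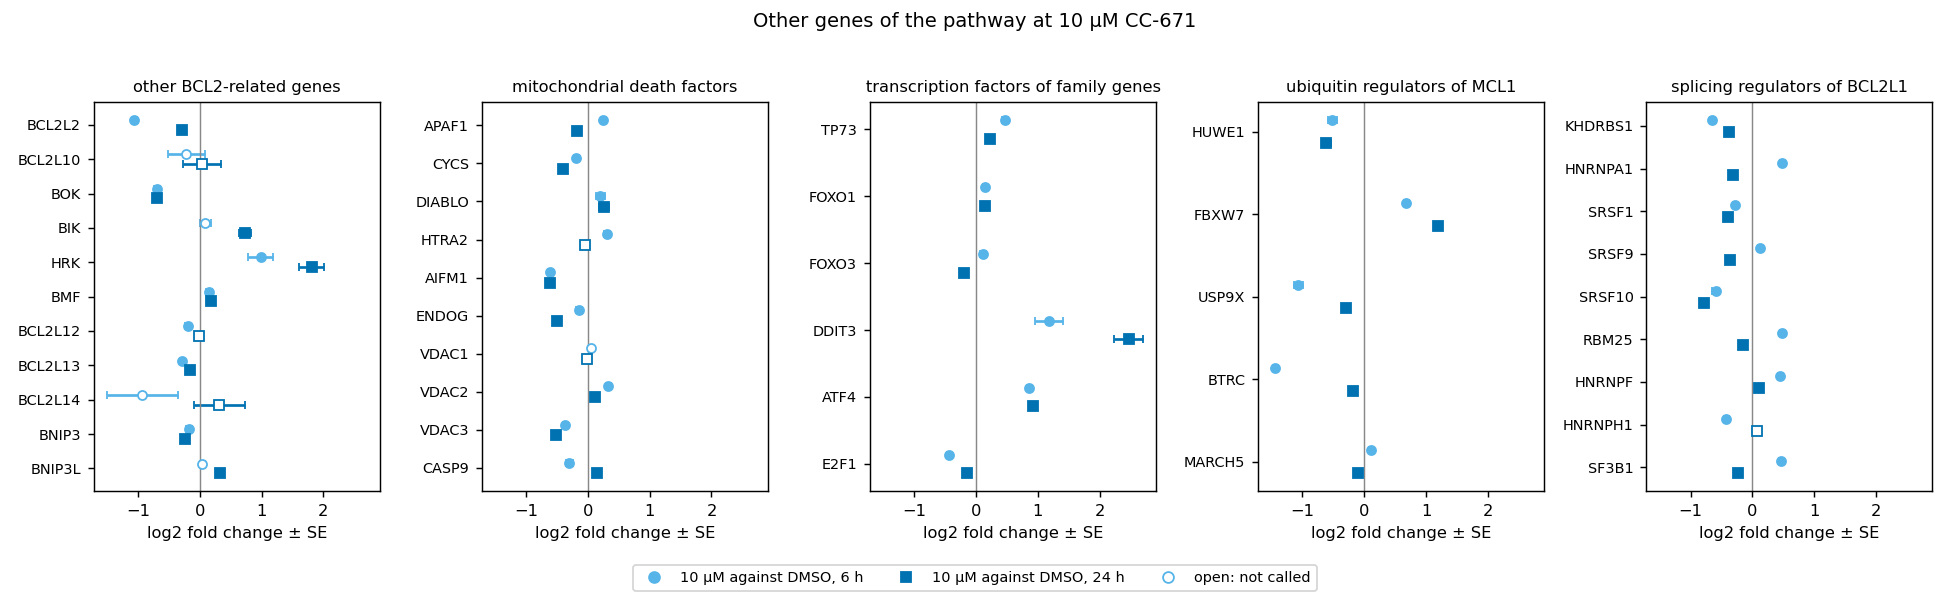
Log2 fold change against DMSO with its standard error at 10 µM for the other genes of the pathway, 1 panel for each list, at 6 h (circles) and 24 h (squares); open symbols are not called. BTRC, USP9X and BCL2L2 lie far left at 6 h and nearer to 0 at 24 h, while FBXW7, DDIT3 and HRK lie farther right at 24 h than at 6 h.

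As a description of pattern over the 16 libraries, the genes whose log2 CPM followed each main member most closely were listed. The search covered 12188 tested genes of sufficient level, leaving out loci with clone names or symbols of small RNAs. The libraries share 6 treatment groups, so any gene that follows the groups scores high. For BBC3 they were PHLDA3 (Pearson r = 0.992), ZNF219 (0.991) and MDM2 (0.990). For PMAIP1 they were STC2 (r = 0.994), CHAC1 (0.994) and ZFAS1 (0.991), of which CHAC1 is a known target of ATF4 and CHOP. BCL2 was followed by BRIP1 (0.989), MYBL1 (0.988) and SRD5A1 (0.985), MCL1, among others, by BNIP2 (0.965) and IL6ST (0.959), and BCL2L11 less closely by CLTC (0.874), SON (0.848) and ZNF711 (0.834).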

How the data were processed

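Transcripts were counted in 16 CAL51 libraries. The values are raw counts of read pairs, 1 deposited file per library with 1 row per gene symbol. The submitters' processing notes list STAR, HTSeq and edgeR and the genome build hg19 (GRCh37). Per the labels' protocols, poly-A RNA went into strand-specific libraries. How strand was treated in counting, the versions and the gene annotation are not given in the sources, so genes with overlapping partners are uncertain.

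Every library entered the fits, in the group its label names. Non-gene entries of the counter (16.9 to 20.2% of pairs) were set aside. Of 55510 symbols, 22007 passed edgeR's filterByExpr (version 4.0.16; minimum count of 10, minimum total of 15). TMM factors ran from 0.963 to 1.05. Robust quasi-likelihood F tests (R 4.3.3) on the means of 6 groups were two-sided, adjusted by Benjamini-Hochberg over the genes of each of 9 comparisons, and called under 0.05. The SE is the absolute log2 fold change divided by the root of F. The 95% intervals take a normal multiple of this SE, so they are narrower than the F test implies. The vehicle groups had 2 libraries each, so all groups shared the estimate of spread. Replicates of a group correlated at 0.996 to 0.997. The procedure was tested on simulated data with changes in few genes, in the 10 µM 24 h group alone. Scaling under changes as broad as those called here was not tested. Exon lengths came from GENCODE 29 (GRCh38).

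Alternatives were DESeq2 1.42.0, limma-voom 3.58.1, other scalings and filters, only the compared groups, a replicate block and each library left out. The scalings of the pathway lists were added after seeing the data. Members and lists were chosen with earlier results of these data known. The text names all members, up to 4 called genes of each other list by size at 10 µM and 24 h and then at 6 h (the list of 5 in full), and the 3 genes most alike for each of 5 members. An item of the transcription factor list and 1 gene most alike to MCL1 are not reported here, and the list counts leave the item out.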

Additional observations from a re-analysis of the deposited data

Results flagged for a closer look

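The effect of CC-671 was tested for a difference between the times, as the log2 effect at 24 h minus that at 6 h, and each value here passed edgeR's quasi-likelihood test. At 3 µM the effectors and 2 of the BH3-only genes had the higher effect at 24 h: the difference was 0.88 for PMAIP1, 0.35 for BBC3, 0.35 for BAX and 0.35 for BAK1. The other genes had the lower effect at 24 h at this dose: -0.42 for BID, -0.28 for BAD, -0.16 for BCL2L11, -0.23 for MCL1, -0.23 for BCL2 and -0.17 for BCL2L1.

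At 10 µM the effect was higher at 24 h by 0.76 for PMAIP1, 0.23 for BAX and 0.51 for BAK1. It was lower at 24 h for the survival genes, at -0.44 for BCL2, -0.34 for MCL1 and -0.27 for BCL2L1, and for the remaining BH3-only genes, at -0.36 for BID, -0.36 for BAD and -0.29 for BCL2L11. Both times have their own vehicle group, and PMAIP1 in vehicle was itself lower at 24 h. BAK1 at 10 µM changed direction, with a fall at 6 h and a rise at 24 h, each past the threshold. MCL1, BCL2L1 and BAD at 10 µM were called higher at 6 h and lower at 24 h, but the BCL2L1 rise was lost in 3 alternatives and the MCL1 fall without a scaling factor (-0.061). The BAD fall (adjusted p = 0.0484) was lost in 13 of 24 alternatives, among them no scaling factor (0.021). The share of read pairs outside annotated exons was 5.51 to 6.22% at 10 µM and 6 h and 5.05 to 5.37% at 10 µM and 24 h, against 3.93 to 4.24% in DMSO at 6 h and 3.78 to 4.11% in DMSO at 24 h. Its part in these differences was not tested.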

How the results depend on the processing

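The changes of BBC3, PMAIP1, BAX and BCL2 against vehicle kept their direction and their call at both doses and times under every alternative run. The count of members called for 10 µM against 3 µM at 24 h was 0 and became 1 (PMAIP1) under DESeq2, with no filter beyond 1 count and with only the compared groups, and 0 to 1 with one library left out. The counts of the other comparisons stayed within 1.5 times. Some values changed sign. Of these, BAD at 10 µM (-0.090, edgeR adjusted p = 0.0484) and BCL2L11 at 3 µM (-0.086, adjusted p = 0.0455), both at 24 h, had been called lower. The others lay near 0 and had not been called, and none was called after the change of sign. For BAD at 10 µM against 3 µM at 6 h this gave -0.003634 under DESeq2, -0.003777 without the filter, -0.006752 without scaling, -0.000794 with only the compared groups and -0.003553 under RLE scaling. Without scaling, BAD against DMSO at 24 h became 0.02071 at 10 µM and 0.08847 at 3 µM (0.02561 under the stricter filter), BCL2L11 0.03065 and 0.01515, and the BBC3 difference of effects at 10 µM 0.07367. BCL2 in vehicle at 24 h against 6 h became -0.001299 without the filter. Leaving out one library gave ranges of -0.0283 to 0.02663 (BAD, 10 µM against 3 µM at 6 h), -0.07107 to 0.02899 (BBC3, difference of effects at 10 µM), -0.0419 to 0.02414 (BBC3, vehicle) and -0.03418 to 0.04677 (BCL2, vehicle). They were -0.01123 to 0.03438 (BCL2L1, 3 µM at 6 h) and -0.008557 to 0.01841 (BCL2L11, 10 µM against 3 µM at 24 h). The cause was not tested. Without scaling, the median of all genes moved to 0.10 at 3 µM and 0.12 at 10 µM at 24 h. The share of calls that were higher was 62.9% in place of 48.9%, 62.3% in place of 49.2% there, and 50.2% in place of 39.3% for 10 µM against 3 µM at 24 h. It was 61.9% in place of 51.9% and 61.3% in place of 51.1% for the differences of effects at 3 and 10 µM. Same-numbered libraries of different groups did not deviate together (median r -0.0068, none of 36 pairs over 0.1). Deviations from means of so few libraries partly cancel, so this check cannot exclude a shared day or culture. The labels do not say what the numbers mark. With a replicate block, 88 of 90 member results kept their call, and BAD at 10 µM (-0.080) and BCL2L11 at 3 µM (-0.081) at 24 h lost it. With the longest transcript as length, BCL2 held 1.97% of the survival genes at 10 µM against 3.32% in DMSO at 24 h.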
